A study of Mus musculus with 8 samples.

Results

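The genes described here are 10 components of the NRF2 antioxidant system of the mouse kidney, out of 19936 genes measured. They were chosen by name: the transcription factor gene Nfe2l2, its inhibitor gene Keap1, and the antioxidant enzyme and transporter genes Nqo1, Gclc, Gclm, Txnrd1, Srxn1, Slc7a11, Gpx3 and Cat. Each was read by the probe set that the array's annotation assigns to it alone, and each of the 10 has exactly 1 such probe set. The samples are whole kidneys of 8 female mice of a mixed C57BL/6 and SV127 background, each on an Affymetrix array. The labels give 4 mice the genotype Pax8-rtTA;LC-1;Vhl-floxed and 4, their littermates, the genotype control, without saying which of the alleles the littermates carry. Pax8-rtTA is active in kidney tubule epithelium and, with doxycycline, switches on the Cre recombinase of LC-1, so that floxed Vhl is meant to be lost in tubule cells and not in vessels, blood or interstitium. Both groups received doxycycline (0.2 mg/ml in 5% sucrose) in the drinking water from week 3 of life for 2 weeks, followed by 1 week off the drug, and kidneys were taken at 6 weeks.

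The labels were read against the targeted gene and its pathway first. Vhl, whose product marks hypoxia-inducible factor (HIF) for destruction, was not lower in the labelled mutant arrays: its mean log2 value was 8.34 ± 0.0909 there and 8.05 ± 0.118 in the labelled control arrays (SD, n = 4 each; log2 difference 0.29, limma adjusted p = 0.0387, and 0.0558 with the replicate number as a block). The Vhl difference was positive under all 18 alternative settings and passed in 8 of them. All 5 HIF target genes read as a check (Egln3, Car9, Adm, Pdk1 and Vegfa) fell, with log2 differences between -2.96 and -0.84. Both readings run against the labels, so groups are called labelled mutant and labelled control throughout, and no direction is a direction of Vhl loss. Labelled mutant arrays 1 and 2 stood apart from labelled mutant arrays 3 and 4 on the second principal component over all genes (14.5 and 6.99, against -16.3 and -14.2, with 19.1% of the variance). Calls of named genes that were lost without either pair are therefore given too. List counts that changed without a pair are given in part, and otherwise lie within the ranges over all settings. Tubule identity was clear on every array, with Slc34a1, a proximal phosphate transporter gene, at 13.52 to 13.83 and Umod, the uromodulin gene of the thick ascending limb, at 13.56 to 13.80 on a scale that ends at 14.66.

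NRF2, the product of Nfe2l2, is a transcription factor that is made and destroyed continuously. KEAP1 holds it in the cytoplasm and presents it to a CUL3 ubiquitin ligase; oxidants and electrophiles modify cysteines of KEAP1, NRF2 then escapes destruction, pairs with a small MAF protein and binds antioxidant response elements near its targets. The targets make glutathione, recycle thioredoxin and peroxiredoxin and reduce quinones. In the kidney this matters most in the proximal tubule, which combines heavy mitochondrial and peroxisomal oxidation with uptake of toxicants, and which secretes the plasma glutathione peroxidase encoded by Gpx3. Since KEAP1 controls NRF2 as a protein, the abundance of Nfe2l2 RNA is not a reading of NRF2 activity, and none of the values below measures protein.

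The antioxidant response element is the sequence that NRF2 binds. RefSeq promoter windows of the members (GRCm38.p6, 250 bases before to 50 after each annotated start) were searched on both strands for the core TGACNNNGC. Windows were found for 9 members, with 3 for Txnrd1 and 11 in all; Gclc was not matched. The core was present in 4 of the 11 windows (36.4%), those of Nfe2l2, Gclm, Srxn1 and the second Txnrd1 window, against 12.4% of all 32851 windows. A related NRF2 and MAF site, TGANTCAGC, added after the windows had been read and overlapping the core where N is C, was present in the Srxn1 window alone among the members and in 1.19% of all windows. The HIF core ACGTG was present in 2 of the 11 windows (18.2%), those of Keap1 and Gclm, near its share of 19.6% of all windows. The stretches below show each of these matches in the reading direction of the gene, with the match in capitals; where the match lies on the opposite strand, the capitals are its reverse complement. Positions are counted from the start site, the first base before it being -1.
Nfe2l2 core at -240 (chr2:75704880-75704913, minus strand): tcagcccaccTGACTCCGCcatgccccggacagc
Gclm core at -134, opposite strand (chr3:122245408-122245446, plus strand): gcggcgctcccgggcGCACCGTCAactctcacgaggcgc
Txnrd1 core at -92, opposite strand (chr10:82859099-82859137, plus strand): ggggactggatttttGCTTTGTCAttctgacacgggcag
Srxn1 core at 29, opposite strand (chr2:152105537-152105573, plus strand): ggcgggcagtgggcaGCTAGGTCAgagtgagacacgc
Srxn1 TGANTCAGC at -45 (chr2:152105464-152105502, plus strand): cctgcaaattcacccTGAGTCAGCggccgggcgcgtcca
Keap1 ACGTG at -223, opposite strand (chr9:21239536-21239570, minus strand): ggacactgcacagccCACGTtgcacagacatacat
Gclm ACGTG at -67, opposite strand (chr3:122245475-122245509, plus strand): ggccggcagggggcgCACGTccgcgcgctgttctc
A match is a run of letters and not a measured binding site, and a window without one says nothing of elements farther away.

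The comparison asked how the labelled genotype relates to expression of the antioxidant system. Keap1, which encodes the inhibitor, fell in the labelled mutant arrays. The 8 antioxidant effector genes all had small positive differences, from 0.05 to 0.17 on the log2 scale with a median of 0.12, and none of them passed the test. Nfe2l2 itself had a difference of -0.02. The limma test thus called 1 of the 10 members, lower, and 0 higher. At an unadjusted p under 0.05 there were 2, Keap1 lower and Gclm higher. Of all 19936 genes, 2158 were higher and 2193 lower at that unadjusted p, so these 2 are near the background as well. Over all genes 7.23% were called, 2.59% higher and 4.64% lower, so 1 call in 10 genes is near the background.

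**Figure D1:**
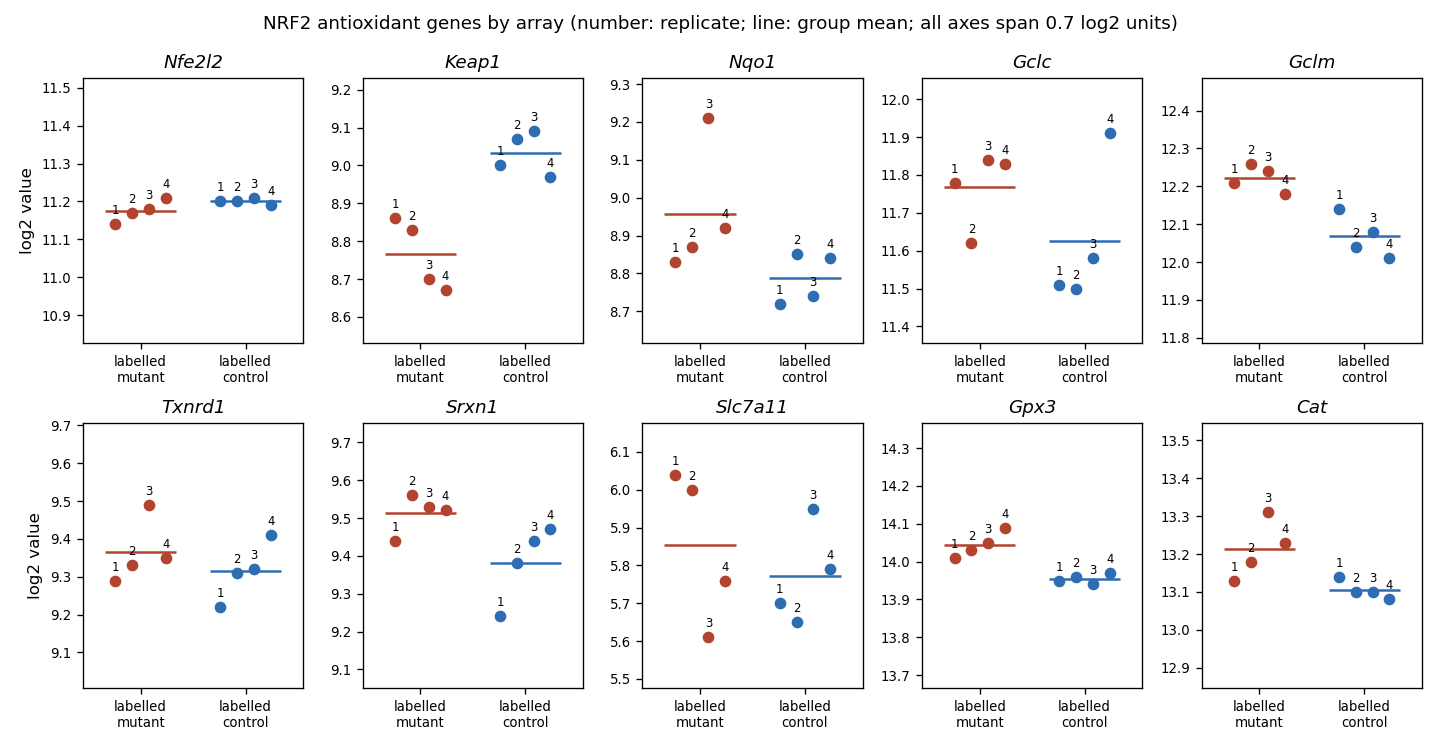
Log2 values of the 10 genes (y axis, each panel spanning 0.7 log2 units) on the 4 labelled mutant arrays (left, red) and the 4 labelled control arrays (right, blue); numbers are replicate numbers and lines are group means. The groups do not overlap for Keap1, Gclm and Gpx3, and Nfe2l2 lies within 11.14 to 11.21 on all 8 arrays.

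Keap1 read 8.86, 8.83, 8.70 and 8.67 on labelled mutant arrays 1 to 4, against 9.00, 9.07, 9.09 and 8.97 on labelled control arrays 1 to 4. Every labelled mutant array lay below every labelled control array, and the nearest arrays of the groups were 0.12 apart. The group means were 8.76 ± 0.0939 and 9.03 ± 0.0560 (SD, n = 4 each), a 1.21-fold fall with a log2 difference of -0.27 (95% interval -0.41 to -0.14, limma adjusted p = 0.0248). Labelled mutant arrays 3 and 4 were the lowest. The call depended on single arrays: the limma adjusted p was 0.0632 without labelled mutant array 3, 0.0649 without labelled mutant array 4, and 0.0528, 0.0764 and 0.0781 without labelled control array 1, 2 or 3. Without labelled mutant arrays 1 and 2 it was 0.0200, and without labelled mutant arrays 3 and 4 it was 0.102 with a difference of -0.19.

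Nfe2l2, the gene of NRF2, had the smallest SD of the 10 in both groups. It read 11.14, 11.17, 11.18 and 11.21 on the labelled mutant arrays and 11.20, 11.20, 11.21 and 11.19 on the labelled control arrays. Labelled mutant arrays 1, 2 and 3 lay just below the 4 control readings and array 4 at their upper end, so the groups overlap. The difference of -0.02 had a 95% interval of -0.12 to 0.08 (limma adjusted p = 0.804), so a change larger than 0.12 in either direction lies outside it.

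The next genes supply glutathione, the main soluble antioxidant of the cell. Gclm encodes the modifier subunit of glutamate-cysteine ligase, the rate-limiting enzyme of glutathione synthesis. It read 12.21, 12.26, 12.24 and 12.18 on the labelled mutant arrays, against 12.14, 12.04, 12.08 and 12.01 on the labelled control arrays. The labelled mutant arrays were all above the labelled control arrays, with a gap of 0.04. The log2 difference was 0.16 (95% interval 0.04 to 0.27) and did not pass the test over all genes (limma adjusted p = 0.105). It did pass after quantile normalization (0.0320) and with the trended robust variance model (0.0443).

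Gclc, the catalytic subunit of the same ligase, read 11.78, 11.62, 11.84 and 11.83 on the labelled mutant arrays, against 11.51, 11.50, 11.58 and 11.91 on the labelled control arrays. Labelled control array 4 was the highest of all 8, so the groups overlap although the other 3 control arrays lay below every labelled mutant array. The difference was 0.14 (95% interval -0.07 to 0.36, limma adjusted p = 0.416). Slc7a11 encodes the cystine importer that feeds the ligase with cysteine. It read 6.04, 6.00, 5.61 and 5.76 on the labelled mutant arrays, against 5.70, 5.65, 5.95 and 5.79 on the labelled control arrays. Both group means, 5.85 ± 0.203 and 5.77 ± 0.132 (SD, n = 4 each), were lower than the lowest quartile boundary of any array (6.21), where differences can be compressed. Labelled mutant arrays 1 and 2 were the highest and array 3 the lowest, and the difference of 0.08 (limma adjusted p = 0.673) turned to -0.08 without labelled mutant arrays 1 and 2.

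Thioredoxin and quinone reduction is represented by Txnrd1, Srxn1 and Nqo1. Srxn1 encodes sulfiredoxin, which restores overoxidized peroxiredoxins, and its window holds both element types shown above. It read 9.44, 9.56, 9.53 and 9.52 on the labelled mutant arrays, against 9.24, 9.38, 9.44 and 9.47 on the labelled control arrays. The groups overlap by 0.04, with labelled control array 1 the lowest, and the difference was 0.13 (95% interval -0.01 to 0.27, limma adjusted p = 0.261). Nqo1, the quinone reductase gene often used as a readout of NRF2, read 8.83, 8.87, 9.21 and 8.92 on the labelled mutant arrays, against 8.72, 8.85, 8.74 and 8.84 on the labelled control arrays. Labelled mutant array 3 stood highest, arrays 2 and 4 lay just above the control range, and array 1 fell inside it. The difference was 0.17 (95% interval -0.02 to 0.36, limma adjusted p = 0.275).

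Txnrd1, cytosolic thioredoxin reductase, read 9.29, 9.33, 9.49 and 9.35 on the labelled mutant arrays, against 9.22, 9.31, 9.32 and 9.41 on the labelled control arrays. The groups were interleaved, and the difference was 0.05 (95% interval -0.09 to 0.19, limma adjusted p = 0.691). It was -0.01 without labelled mutant arrays 3 and 4.

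Gpx3 and Cat remove hydrogen peroxide outside the cell and in peroxisomes. Gpx3, the secreted selenium-dependent glutathione peroxidase, read 14.01, 14.03, 14.05 and 14.09 on the labelled mutant arrays, against 13.95, 13.96, 13.94 and 13.97 on the labelled control arrays. The labelled mutant arrays were all above the labelled control arrays, by a gap of 0.04, at values near the upper end of the scale where differences can also be compressed. The difference was 0.09 (95% interval -0.01 to 0.19, limma adjusted p = 0.279, and 0.0331 after quantile normalization, where the difference was 0.17). Cat, catalase, read 13.13, 13.18, 13.31 and 13.23 on the labelled mutant arrays, against 13.14, 13.10, 13.10 and 13.08 on the labelled control arrays. Labelled mutant array 1 fell inside the control range and the other 3 lay above it, and the difference was 0.10 (95% interval -0.02 to 0.23, limma adjusted p = 0.301).

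**Figure D2:**
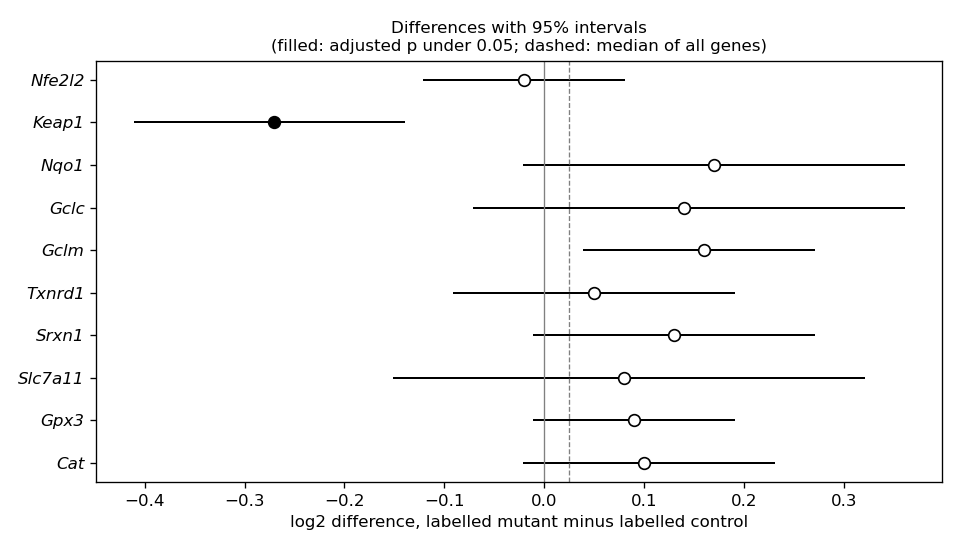
Log2 differences of the 10 genes (x axis, labelled mutant minus labelled control) with 95% intervals from the limma fit; the filled point passed the test and the dashed line is the median of all genes (0.025). Only the intervals of Keap1 (-0.41 to -0.14) and Gclm (0.04 to 0.27) leave out 0.

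Seen together, 8 of the 10 members had positive differences (80.0%), against 58.1% of all genes, and their median difference was 0.10 against 0.025 over all genes. When arrays of the same replicate number were set side by side, Nqo1, Gclm, Srxn1 and Gpx3 were higher in the labelled mutant array in 4 of 4 pairs and Keap1 was lower in 4 of 4. The share of all genes with 1 direction in every pair was not counted, so these counts have no background. The Nqo1 difference in pair 2 was only 0.02. The groups did not overlap for 3 members, where 14.8% of all genes had groups that did not overlap. Gclm and Gpx3 were the 2 with every labelled mutant array above, as for 6.57% of all genes, and Keap1 the 1 with every labelled mutant array below, as for 8.20%. The standard errors of the members ran from 0.0451 to 0.104, around the median of 0.0718 over all genes, and the upper ends of the effector genes' 95% intervals reached at most 0.36 on the log2 scale.

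**Figure D3:**
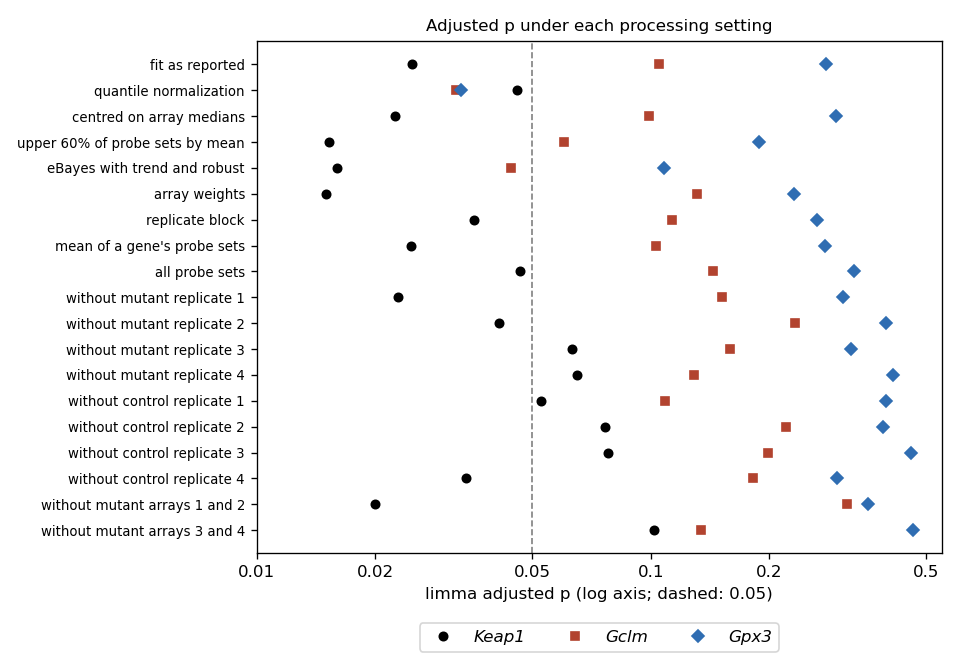
Limma adjusted p (log x axis; dashed line at 0.05) of Keap1, Gclm and Gpx3 in the fit as reported and under 18 other settings. Keap1 passed in 12 of the 18, Gclm in 2 and Gpx3 in 1. The settings that average probe sets, test every probe set or filter by mean leave the values of these genes unchanged. With 1 array left out Keap1 passed in 3 of 8 fits.

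For the called member the genes with the most similar profile were looked up, by the root mean square difference of the mean-centred log2 values over the 8 arrays. Nearest to Keap1 were Fau, which encodes a ubiquitin-like protein fused to a ribosomal protein (0.029), Pld2, a phospholipase D gene (0.042), and Mgme1, a mitochondrial exonuclease gene (0.045), while the profile of Keap1 itself varied by 0.151 around its mean. The differences of the 3 genes, -0.27, -0.23 and -0.23, were close to that of Keap1. Choosing genes by their profile over the same 8 arrays makes this so, and it is not a separate result.

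The wider pathway showed single genes that moved further than any of the 10 members, in both directions. Among 14 measured partners and regulators of NRF2, 1 rose and 0 fell. The background for this list and those that follow was 2.59% of all genes called higher, 4.64% called lower and a median of 0.025. Btrc, whose F-box protein directs NRF2 to destruction independently of KEAP1, was 1.14-fold higher in the labelled mutant arrays (10.14 ± 0.0411 against 9.94 ± 0.0559, SD, n = 4 each; limma adjusted p = 0.0493). That call was lost without any 1 of the 8 arrays (0.0592 to 0.132) and with the replicate block (0.0720). It was also lost after median centring, with array weights and when every probe set was tested. With the block the small MAF gene Maff was called lower instead (log2 difference -0.26, adjusted p = 0.0721 without and 0.0363 with the block). The median of the list was 0.04.

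Of 27 further NRF2 target genes, 2 rose, 4 fell and 21 did not pass, with a median of 0.02. The shares over all genes were 2.59% higher and 4.64% lower. Hmox1, haem oxygenase 1, is a target of both NRF2 and HIF and read 8.56, 8.35, 8.63 and 9.25 on the labelled mutant arrays, against 9.51, 9.45, 9.96 and 10.76 on the labelled control arrays. The groups do not overlap, array 4 was the highest in both, and the fall was 2.32-fold (limma adjusted p = 0.0293, and 0.00160 with the replicate block). The NADPH-producing enzyme genes Me1 and Pgd fell 1.67-fold and 1.24-fold, and the epoxide hydrolase gene Ephx1 fell 1.46-fold. The glutathione transferase genes Gsta3 and Gstm1 were 1.70-fold and 1.18-fold higher (limma adjusted p = 0.0120 and 0.0245); both belong to families of near-identical genes, whose transcripts a probe set may not separate. With the replicate block Osgin1, an oxidative stress growth inhibitor gene, was also called higher (log2 difference 0.46, adjusted p = 0.0510 without and 0.0273 with the block) and Ephx1 was not called (0.0653). Without labelled mutant array 1, 2 or 3 or labelled control array 3, Hmox1 did not pass (0.0643 to 0.0907). Ephx1 did not pass without labelled mutant array 1, 2 or 3 or labelled control array 2 (0.0650 to 0.106). Pgd did not pass without labelled mutant array 2 or 4 or labelled control array 1, 2 or 3 (0.0562 to 0.0744), nor Gstm1 without labelled mutant array 2, 3 or 4 or labelled control array 1 or 2 (0.0562 to 0.0752). Without labelled mutant arrays 1 and 2 together the adjusted p of Hmox1 was 0.188.

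Glutathione handling beyond Gclc, Gclm and Slc7a11 was read in a further list. Of 16 measured genes 2 rose and 0 fell, where 2.59% of all genes were called higher and 4.64% lower. Positive differences were found for 13 (81.2%, against 58.1% of all genes), and the median was 0.16 against 0.025 over all genes. At an unadjusted p under 0.05, 8 of the 16 were higher and 1 lower. Of all 19936 genes, 2158 were higher and 2193 lower at that unadjusted p. Hagh, the glyoxalase that releases glutathione from its lactoyl adduct, was 1.31-fold higher (10.99 ± 0.0741 against 10.60 ± 0.0497, SD, n = 4 each; limma adjusted p = 0.00305). Dpep1, the brush border dipeptidase of glutathione breakdown, was 1.32-fold higher (limma adjusted p = 0.0350), a call lost without labelled mutant array 2, 3 or 4 or any labelled control array (0.0649 to 0.0980). Glrx, glutaredoxin, had a log2 difference of 0.68 that did not pass (adjusted p = 0.0722); it passed with the replicate block (0.0320), with array weights (0.0323) and without labelled control array 4 (0.0295).

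Other peroxide and thiol enzymes changed in both directions. Prdx4, the peroxiredoxin of the endoplasmic reticulum, read 7.29, 7.42, 7.64 and 7.49 on the labelled mutant arrays, against 8.54, 8.77, 8.77 and 8.34 on the labelled control arrays. No array of the groups overlapped, and the fall was 2.21-fold (limma adjusted p = 3.17e-04). Txnip, which encodes an inhibitor of thioredoxin, fell 1.42-fold and Msrb3, a methionine sulfoxide reductase gene, 1.28-fold (limma adjusted p = 0.0274 and 0.00474). Gpx1, the intracellular glutathione peroxidase gene, was 1.24-fold higher (12.95 ± 0.0492 against 12.64 ± 0.0693, SD, n = 4 each; limma adjusted p = 0.00839). These were the 1 higher and 3 lower of 19 measured genes, against 2.59% and 4.64% of all genes, and the list's median was 0.00. Txnip did not pass without labelled mutant array 4 or labelled control array 1 or 2 (0.0595 to 0.0677).

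**Figure D4:**
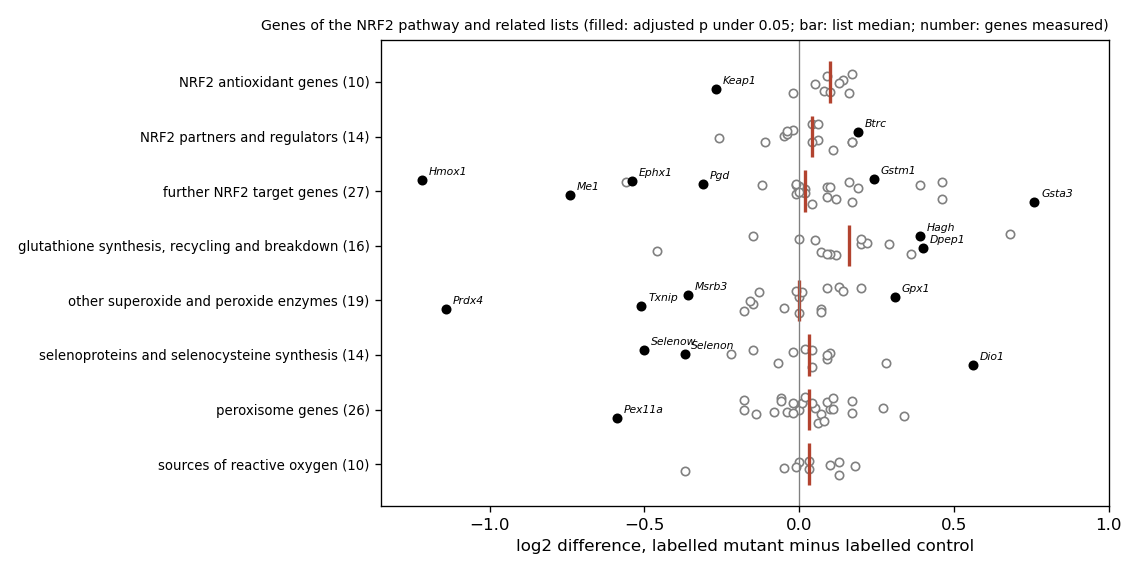
Log2 differences (x axis, labelled mutant minus labelled control) of every measured gene of the NRF2 antioxidant genes and 7 related lists, in rows; filled points passed the test and are named, and red bars are list medians. Hmox1 (-1.22), Prdx4 (-1.14) and Gsta3 (0.76) lie farther from 0 than any of the 10 NRF2 antioxidant genes.

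Gpx3 and Txnrd1 are selenoproteins, so further genes of that class were counted too. Selenoprotein genes already read among the peroxide and thiol enzymes, such as Gpx1 (called higher), are not in this list. Among 14 measured selenoprotein and selenocysteine synthesis genes, the deiodinase gene Dio1 rose 1.48-fold and Selenow and Selenon fell 1.42-fold and 1.30-fold. The other 11 did not pass, and the median was 0.03, where 2.59% of all genes were called higher and 4.64% lower. Beside Cat, 26 peroxisome genes gave 0 higher and 1 lower: Pex11a, a gene of peroxisome division, fell 1.51-fold (limma adjusted p = 0.0233), a call lost without labelled mutant array 2 or labelled control array 1, 2 or 4 (0.0557 to 0.0730). At an unadjusted p under 0.05, 4 peroxisome genes were higher and 1 lower, and the median was 0.03. Of all 19936 genes, 2158 were higher and 2193 lower at that unadjusted p. Among 10 genes that make reactive oxygen limma called 0, at an unadjusted p under 0.05 as well. Cybb, the phagocyte NADPH oxidase gene, had the largest difference of that list. It read 9.16, 8.71, 8.17 and 8.19 on the labelled mutant arrays, against 8.81, 9.11, 8.98 and 8.80 on the labelled control arrays. Its difference was -0.37 (limma adjusted p = 0.315). The Cybb difference was -0.57 without labelled mutant array 1, -0.75 without labelled mutant arrays 1 and 2, and 0.01 without labelled mutant arrays 3 and 4. The pairs were set apart by the values of these same arrays. These differences therefore show only the spread among the labelled mutant arrays.

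Whole kidneys mix many cell types, and in such samples fewer cells of a type and less RNA per cell cannot be told apart. As background for the marker counts, 2.59% of all genes were called higher and 4.64% lower. Of the proximal tubule markers, whose cells are a main source of Gpx3 and Cat, 3 of 10 rose and 0 fell, and their mean level was 11.96 to 12.25 on the labelled mutant arrays, against 11.68 to 11.94 on the labelled control arrays. Of the thick ascending limb markers 3 of 6 rose, and of the distal and collecting duct markers 3 of 9, with mean levels of 11.66 to 11.75 against 11.27 to 11.46 and of 10.46 to 10.69 against 10.25 to 10.47. Endothelial markers fell in 8 of 8 (10.20 to 10.33 against 10.84 to 11.07) and fibroblast and mural cell markers in 3 of 6 (9.84 to 9.95 against 10.08 to 10.26). Of the 3 erythroid markers measured, Alas2 fell and 2 did not pass (6.62 to 7.05 against 7.50 to 8.02). Of 4 podocyte markers 1 fell and 0 rose (9.16 to 9.33 against 9.23 to 9.34). Of 10 macrophage and leukocyte markers limma called 0 (8.01 to 8.64 against 8.29 to 8.54). At an unadjusted p under 0.05 there was 1, lower, as were 2193 of all 19936 genes. Without labelled mutant arrays 1 and 2, 5 of the 10 were called lower, and without labelled mutant arrays 3 and 4, 1 was called higher. As the pairs were set apart by the values of these same arrays, these counts are not a separate result. The leukocyte gene Ptprc, chosen after its values were seen, read 8.26, 8.27, 7.39 and 7.31 on the labelled mutant arrays, against 8.14, 8.20, 8.09 and 7.82 on the labelled control arrays. Without labelled mutant arrays 1 and 2, 1 of the 9 distal and collecting duct markers and 2 of the 6 thick ascending limb markers were called higher. With the replicate block the macrophage gene Cd68 was called lower (adjusted p = 0.143 without and 0.0334 with the block), and the salt transporter genes Slc12a1 (0.0588 and 0.0456) and Slc12a3 (0.147 and 0.0341) of the thick limb and distal tubule were called higher. The part of cell composition in the differences of the antioxidant genes was not tested.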

How the data were processed

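Kidney RNA was extracted with TRIzol and RNeasy and biotinylated, per the labels' protocols. The deposited table holds log2 values of 35556 probe sets on 8 arrays, 1.92 to 14.66, with array medians of 7.55 to 7.58; per the submitters' processing notes limma was used, and background correction, summarization and normalization are not given in the sources used here. The platform annotation names 1 gene for 21789 probe sets, several for 1621 and none for 12146. Symbols were updated to RefSeq (GRCm38.p6): 21701 matched and 88 kept the platform's symbol. Where several probe sets named a gene, that with the highest mean over the 8 arrays was kept, giving 19936 genes.

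Differences are labelled mutant minus labelled control, from limma 3.58.1 in R 4.3.3 (lmFit, eBayes, group only, two-sided), with Benjamini-Hochberg adjustment over all genes and calls at an adjusted p under 0.05. A fold is 2 raised to the size of the difference. The fit was tested on simulated data. Same-numbered arrays deviated together weakly (correlations 0.138, 0.153, 0.295 and 0.175). The highest correlations with an array of another number were 0.111, 0.111, 0.0858 and 0.0858, so the margin was small for number 1. The numbers were taken as pairs from the data, and the fit with the replicate block is given where it changes a call. The number of arrays limits the precision.

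The members and gene lists were chosen with earlier results of these data known. Named are all members, the 2 called genes of each pathway list with the largest change (or the largest change where none was called), and the 3 genes nearest in profile to a called member, passing over clone and predicted-gene names; further list genes called with or without the block were added after their values were seen. List genes with no probe set of their own were left out. Alternatives were quantile normalization, median centring, the upper 60% of probe sets by mean, a trended robust variance model, array weights, the replicate number as a block, averaging the probe sets of each gene, testing every probe set, thresholds of 0.01 and 0.1, each array left out in turn, and labelled mutant arrays 1 and 2, or 3 and 4, left out together.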

Additional observations from a re-analysis of the deposited data

Results flagged for a closer look

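Among 37 of the named genes, with 4 arrays a group, 2 groups of 74 held an array far from the other 3, where chance flags about 1 in 20. Dio1 read 9.20 on labelled mutant array 1 and 9.35 to 9.36 on the other labelled mutant arrays; all lay above the labelled control arrays. Selenow read 11.06 on labelled control array 2 and 10.85 to 10.89 on the other labelled control arrays; all lay above the labelled mutant arrays. The 10 NRF2 antioxidant genes had no such array in either group.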

How the results depend on the processing

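Of the members, 1 was called lower and 0 higher. The count higher was 2 after quantile normalization (Gclm and Gpx3) and 1 with the trended robust variance model (Gclm), and 0 with any 1 array left out. The count lower was 0 to 1 with 1 array left out, 0 without labelled mutant arrays 3 and 4, and 0 at an adjusted p under 0.01. Over all genes 517 were higher and 925 lower. The count higher was 263 to 487 with 1 array left out, 316 without labelled mutant arrays 1 and 2, 148 at 0.01 and 901 at 0.1; the count lower was 454 at 0.01. Vhl kept a difference of 0.29 but not its call with the replicate block (adjusted p = 0.0558) or over all probe sets (0.0714). Its difference was 0.25 to 0.35 with 1 array left out (0.0128 to 0.114), 0.35 without labelled mutant arrays 1 and 2 (0.0661) and 0.23 without 3 and 4 (0.123). Vhl passed in 2 of the 8 fits with 1 array left out and in 8 of all 18 settings. Among uncalled genes the sign turned for Nfe2l2 after quantile normalization (0.00; it was 0.00 without a turn of sign without labelled mutant arrays 1 and 2), Slc7a11 without labelled mutant arrays 1 and 2 (-0.08), and Txnrd1 and Cybb without 3 and 4 (-0.01 and 0.01). Over all settings 1 to 3 further NRF2 target genes were called higher and 1 to 5 lower, 1 to 3 glutathione genes higher and 0 to 1 lower, and 0 to 1 other peroxide enzymes higher and 2 to 4 lower. For partners and regulators it was 0 to 2 higher and 0 to 1 lower, for selenoproteins 0 to 2 and 1 to 3, for peroxisome genes 0 to 3 and 0 to 1, and for sources of reactive oxygen 0 to 1 and 0 to 1. Calls were also lost without labelled mutant arrays 1 and 2 for Gpx1 (0.0557), Dio1 (0.0634), Pgd (0.0637), Selenon (0.0691), Pex11a (0.0727), Txnip (0.104), Btrc (0.119) and Ephx1 (0.175), and without 3 and 4 for Gsta3 (0.0554), Pgd (0.0608), Dio1 (0.0704), Ephx1 (0.0716), Gstm1 (0.101), Dpep1 (0.111) and Btrc (0.124). For cell type markers the counts higher were 2 to 4 (proximal tubule), 2 to 5 (thick limb), 1 to 4 (distal and collecting duct) and 0 to 1 (macrophage and leukocyte, podocyte), and those lower 0 to 5 (macrophage and leukocyte), 0 to 1 (podocyte), 2 to 3 (fibroblast and mural), 1 to 2 (erythroid) and 8 (endothelial, in every setting). The replicate block changed no call among the 10 members. The cause of these shifts was not tested. Median shifts over all genes stayed between 0.003 and 0.037. Whether values of Slc7a11, low on the scale, or Gpx3, high on it, were compressed was not tested.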
